A study of Mus musculus with 9 samples.

Results

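Neutrophils and monocytes are white blood cells that leave the blood and enter brain tissue after a stroke. The values of 34 genes that mark these cells, or that they use, were followed in RNA of mouse cerebral cortex. The genes were taken by their symbols from the deposited tables, which held 52549 genes after the 2 gene IDs of Itgam were summed, and all 34 were found. They fall into 11 granulocyte genes (receptors, granule proteins and secreted products of neutrophils), 9 monocyte and macrophage genes, and 14 genes that both kinds of cell share (adhesion molecules, the phagocyte oxidase, lectin and antibody receptors, lysozyme).

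The cortex came from male C57BL/6N mice aged 9 to 12 weeks. Mice of the knockdown group (replicates 2, 3 and 4) received a locked nucleic acid antisense oligo against the enhancer RNA eRNA_06347 through the lateral ventricles, and mice of the control oligo group (replicates 1, 2 and 3) received a negative control oligo by the same route. Both groups then had 1 h of middle cerebral artery occlusion (MCAO, blockage of the artery by a filament) and 6 h of reperfusion, and the infarcted cortex of the injured side was taken. Mice of the sham group (replicates 1, 2 and 3) had the neck incision with no filament, and the labels name no oligo for them. Each group held 3 libraries, and the level of eRNA_06347 itself was not analysed here. TPM is the share of a transcript in the RNA of a library after division by its length, scaled to a fixed total, and all levels below are TPM in the order of the replicate numbers.

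Neutrophils are short-lived cells that carry ready-made granules and follow chemokines and bacterial or mitochondrial formyl peptides into injured tissue. Monocytes follow other chemokines and turn into macrophages there. In the brain both meet microglia, the resident macrophages, which share the integrins, antibody receptors and oxidase with them, so a shared gene cannot be given to 1 of these cells in bulk tissue. Fewer cells of a type and less RNA per cell cannot be told apart in such data either.

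The 6 MCAO libraries held 17.5 to 19.6 M read pairs of 141 nt reads, and the sham libraries, taken from an earlier data set, 58.4 to 62.4 M aligned reads of 51 nt, all estimated from the deposited coverage. Of all TPM, 54.7 to 63.9% fell on nuclear protein-coding genes in the MCAO libraries, against 30.6 to 34.2% in sham libraries. Stroke, oligo, read length and RNA composition therefore cannot be told apart in comparisons with sham, and these are also given after median-ratio scaling. The cortical neuron markers, 7 genes, summed to 4094, 3583 and 2546 TPM in knockdown, 3147, 3642 and 3345 in control oligo and 1931 to 2167 in sham libraries. Knockdown replicate 4 was the lowest MCAO library for 5 of the 7, against 21.8% of all genes tested. Of the 34 genes, 5 (Camp, Retnlg, Trem1, Clec4d and Clec4e) were listed at 0 in all 3 sham libraries, and 21 were below 1 TPM in each of them.

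Knockdown replicate 4 stood apart from every other library in these genes. It was the highest of the 6 MCAO libraries for 32 of the 34 genes, as it was for 20.5% of all 17079 genes kept by the level filter (TPM of at least 1 in at least 3 libraries). It exceeded the next library over 2-fold for 29 of the 34, against 3.66% of all genes. The sum over the 34 genes was 158, 178 and 1954 TPM in knockdown, 436, 136 and 225 in control oligo, and 41.5, 61.0 and 36.9 in sham libraries. Knockdown replicates 2 and 3 both lay below control oligo replicates 1 and 3 for 26 of the 34 genes, against 11.9% of all genes. That count leaves out knockdown replicate 4 and control oligo replicate 2. Both lay below all 3 control oligo libraries for only 5 of the 34, against 7.38% of all genes. Control oligo replicate 1 was the highest of its group for 32 of 34 genes (23.4% of all genes), and control oligo replicate 2 the lowest of its group for 30 of 34 (19.0% of all genes).

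**Figure D1:**
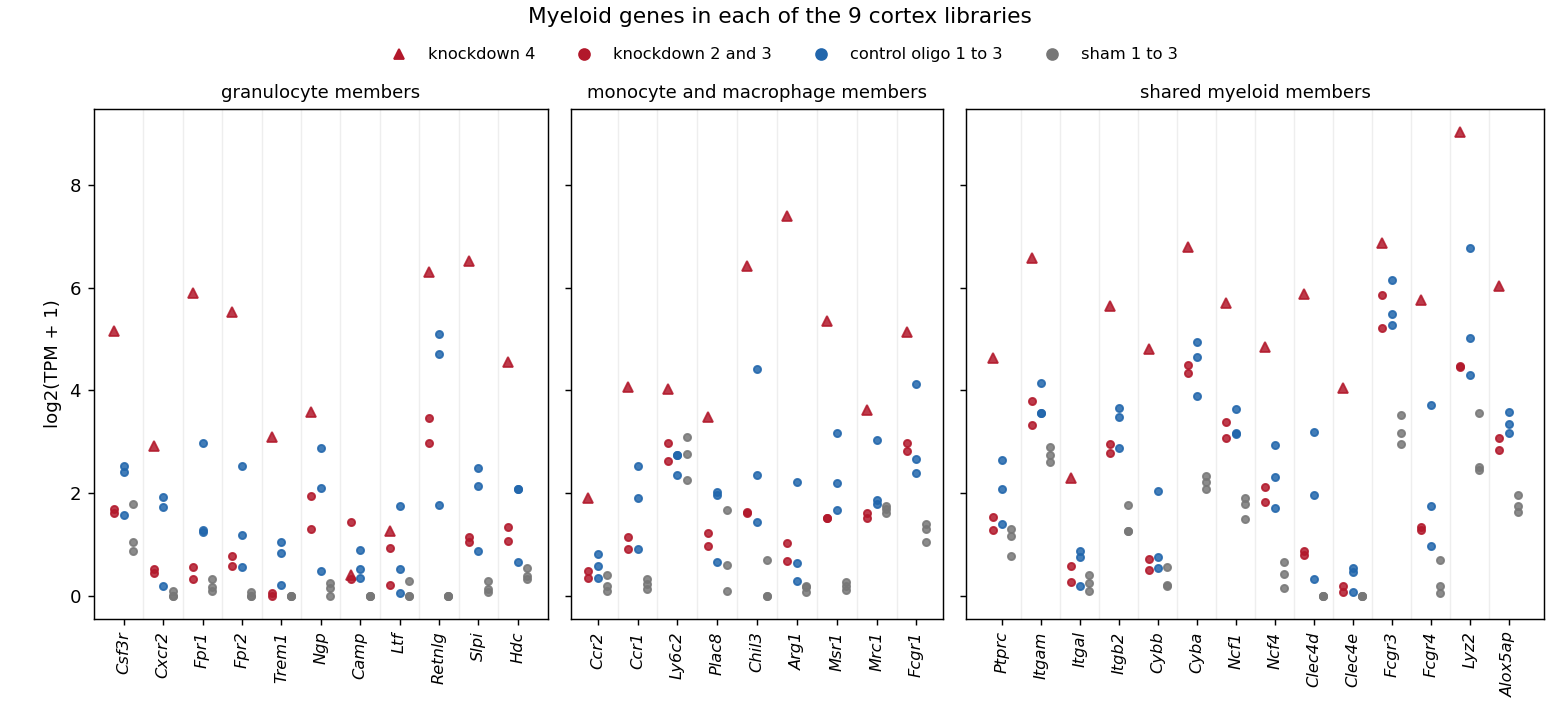
Level of each gene, as log2(TPM + 1) on the y axis, in the 9 libraries (points), with genes on the x axis in 3 panels by role. Within each gene the knockdown points stand left (triangle for replicate 4), control oligo in the middle and sham right; the triangle is the highest MCAO point for 32 of 34 genes, and Camp and Ltf are the exceptions.

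Among the granulocyte receptors the same library was highest each time. Fpr1, a receptor that guides neutrophils to formyl peptides, had 0.254, 0.476 and 59 TPM in knockdown, 6.81, 1.44 and 1.37 in control oligo and 0.0644, 0.12 and 0.259 in sham libraries. Fpr2, its neighbour on chromosome 17 at a distance of 3.88 kb and a receptor for formyl peptides and annexin A1, had 0.493, 0.704 and 45.4 TPM in knockdown, 4.79, 0.477 and 1.27 in control oligo and 0, 0 and 0.0464 in sham libraries. For both genes 1 knockdown library lay far above, and the other knockdown libraries below the highest control oligo library. Csf3r, the receptor for granulocyte colony-stimulating factor, had 2.21, 2.05 and 34.8 TPM in knockdown, 4.78, 1.98 and 4.32 in control oligo and 0.822, 2.43 and 1.07 in sham libraries. Cxcr2, the receptor for the chemokines that draw neutrophils out of the blood, had 0.43, 0.355 and 6.59 TPM in knockdown, 2.78, 0.142 and 2.29 in control oligo and 0.0698, 0 and 0 in sham libraries. Trem1, which amplifies inflammatory signals in neutrophils and monocytes, had 0.0374, 0 and 7.51 TPM in knockdown and 1.06, 0.15 and 0.786 in control oligo libraries and was listed at 0 in sham. Csf3r made up 51.1 to 71.0% of the summed granulocyte TPM in sham libraries.

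The granule genes Camp and Ltf were the members for which knockdown replicate 4 was not the highest MCAO library. Ngp, a cystatin-like protein of the specific granules, had 2.86, 1.45 and 11 TPM in knockdown, 6.38, 0.398 and 3.29 in control oligo and 0.106, 0.185 and 0 in sham libraries. Ltf, lactoferrin, an iron-binding protein of the same granules, had 0.902, 0.153 and 1.41 TPM in knockdown, 2.36, 0.0397 and 0.425 in control oligo and 0, 0.215 and 0 in sham libraries. Camp, the precursor of the antimicrobial cathelicidin peptide, had 1.7, 0.252 and 0.327 TPM in knockdown and 0.856, 0.43 and 0.261 in control oligo libraries and was listed at 0 in sham. Camp was highest in knockdown replicate 2 and Ltf in control oligo replicate 1, and the ratio of knockdown replicate 4 to control oligo replicate 1 was 1.72 for Ngp, 0.597 for Ltf and 0.382 for Camp. The values of Camp rest on few reads, an estimated 12, 2 and 2 read pairs in knockdown and 6, 3 and 2 in control oligo libraries. The 3 genes lie within 1170 kb of each other on chromosome 9 (GRCm38/mm10). Summed, they had 5.46, 1.86 and 12.7 TPM in knockdown, 9.60, 0.868 and 3.97 in control oligo and 0.106, 0.400 and 0 in sham libraries. The 5 receptors (Csf3r, Cxcr2, Fpr1, Fpr2 and Trem1) summed to 3.43, 3.59 and 153 TPM in knockdown, 20.2, 4.18 and 10.04 in control oligo and 0.956, 2.55 and 1.37 in sham libraries. The ratio of receptor to granule TPM was thus 0.628, 1.93 and 12.0 in knockdown and 2.11, 4.82 and 2.53 in control oligo libraries. These subgroups were formed after the values were seen, and the ratio has no test.

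Retnlg, Slpi and Hdc code for secreted proteins or a metabolic enzyme of granulocytes. Retnlg, a resistin-like protein made by mouse neutrophils, was the most abundant granulocyte gene in 5 of the 6 MCAO libraries, with 6.82, 10.1 and 78.7 TPM in knockdown and 33.3, 2.42 and 25.1 in control oligo libraries, and was listed at 0 in sham. Slpi, an inhibitor of neutrophil elastase, had 1.06, 1.2 and 91.3 TPM in knockdown, 4.57, 0.837 and 3.38 in control oligo and 0.0945, 0.218 and 0.0472 in sham libraries, and exceeded Retnlg in knockdown replicate 4. Hdc, the enzyme that makes histamine in basophils, mast cells and some neutrophils, had 1.53, 1.09 and 22.4 TPM in knockdown, 3.25, 0.576 and 3.2 in control oligo and 0.454, 0.254 and 0.305 in sham libraries. Of the 9 mast cell and basophil markers only Kit, which other brain cells also express, was kept by the filter, and the other 8 stayed below 0.5 TPM in every library. The list summed to 11.6 to 13.3 TPM in knockdown, 10.7 to 13 in control oligo and 8.71 to 11.7 in sham libraries.

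Among the monocyte and macrophage genes Arg1, Chil3 and Msr1 spanned a wide range over the MCAO libraries. Arg1, arginase, an enzyme that macrophages make under alternative activation, had 1.05, 0.591 and 167 TPM in knockdown, 3.64, 0.221 and 0.544 in control oligo and 0.135, 0.128 and 0.0544 in sham libraries. Chil3, a chitinase-like secreted protein of mouse macrophages and monocytes, had 2.08, 2.06 and 84.9 TPM in knockdown, 20.3, 1.7 and 4.12 in control oligo and 0, 0.623 and 0 in sham libraries. Msr1, a scavenger receptor, had 1.85, 1.84 and 39.7 TPM in knockdown, 8.0, 2.17 and 3.56 in control oligo and 0.208, 0.136 and 0.0852 in sham libraries. For Arg1 knockdown replicate 4 stood 45.7-fold above the next library, the widest gap among the 34 genes, and the remaining MCAO libraries did not exceed 3.64 TPM. Arg1 made up 43.8% and Chil3 22.3% of the summed monocyte and macrophage TPM in that library.

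Ccr2, the receptor that lets monocytes leave the bone marrow, stayed low, with 0.391, 0.261 and 2.75 TPM in knockdown, 0.744, 0.269 and 0.50 in control oligo and 0.133, 0.325 and 0.0662 in sham libraries. Ccr1, a receptor for several inflammatory chemokines, had 1.21, 0.881 and 15.7 TPM in knockdown, 4.8, 0.866 and 2.75 in control oligo and 0.0899, 0.244 and 0.17 in sham libraries. Knockdown replicate 4 was highest and control oligo replicate 1 next for both receptors. Ly6c2, a surface marker of inflammatory monocytes, had 5.17, 6.85 and 15.3 TPM in knockdown, 5.68, 4.11 and 5.69 in control oligo and 5.8, 7.57 and 3.78 in sham libraries, so that only knockdown replicate 4 lay above the highest sham library. Its near-identical neighbour Ly6c1, an endothelial gene in brain, had 121, 113 and 208 TPM in knockdown, 87.9, 108 and 107 in control oligo and 26.8, 35.6 and 16 in sham libraries, and reads could be split between them. Plac8, a cysteine-rich protein of monocytes and neutrophils, had 1.34, 0.963 and 10.2 TPM in knockdown, 2.88, 0.578 and 3.03 in control oligo and 0.503, 2.17 and 0.0659 in sham libraries. Sham replicate 2 lay above 3 of the 6 MCAO libraries for Plac8. Mrc1, the mannose receptor of macrophages at vessels and meninges, had 2.04, 1.85 and 11.3 TPM in knockdown, 7.14, 2.43 and 2.62 in control oligo and 2.07, 2.36 and 2.21 in sham libraries. Knockdown replicates 2 and 3 lay below all 3 sham libraries for Mrc1. Fcgr1, the high-affinity antibody receptor, which microglia also carry, had 6.02, 6.87 and 34.1 TPM in knockdown, 16.3, 5.33 and 4.22 in control oligo and 1.63, 1.46 and 1.08 in sham libraries. Ly6c2 and Mrc1 were the leading monocyte genes in sham, with 50.3 to 54.9% and 15.7 to 29.4% of the summed TPM of the 9 genes.

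**Figure D2:**
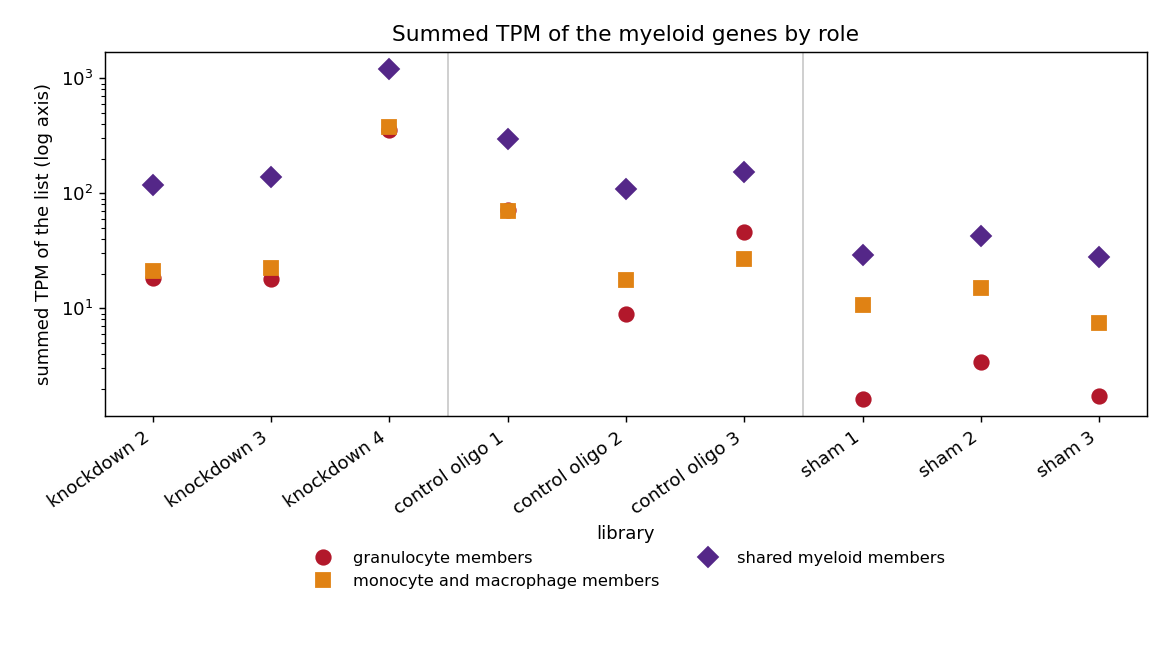
Summed TPM (y axis, log scale) of the 11 granulocyte, 9 monocyte and macrophage and 14 shared genes in each library (x axis; knockdown, control oligo and sham from left to right, 1 point per list and library). The granulocyte sum is close to the monocyte sum in knockdown replicates 2, 3 and 4 and in control oligo replicate 1, and well below it in the 3 sham libraries.

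The shared genes of adhesion were present in every library. Itgam, the alpha chain of the integrin Mac-1 of neutrophils, monocytes and microglia, had 12.8, 9.05 and 95.1 TPM in knockdown, 16.7, 10.8 and 10.8 in control oligo and 5.69, 6.49 and 5.12 in sham libraries. Its symbol stands on 2 gene IDs of the tables, the gene and a read-through named Gm49368 in GENCODE, and the gene's own ID had 6.72, 9.05 and 69.2 TPM in knockdown, 11.3, 10.8 and 10.2 in control oligo and the same values as the sum in sham libraries. Itgb2, the beta chain it pairs with, had 6.77, 5.83 and 49.1 TPM in knockdown, 11.6, 6.38 and 10.2 in control oligo and 1.38, 2.41 and 1.39 in sham libraries. Itgal, the alpha chain of the integrin LFA-1, did not exceed 0.822 TPM outside knockdown replicate 4, where it had 3.88 TPM. Ptprc, the CD45 phosphatase of all white blood cells, had 1.41, 1.89 and 23.7 TPM in knockdown, 5.24, 1.65 and 3.2 in control oligo and 1.23, 1.45 and 0.703 in sham libraries. In all 4 genes knockdown replicate 4 was highest and control oligo replicate 1 next.

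The phagocyte oxidase, which makes superoxide, has a membrane core of Cybb and Cyba and cytosolic subunits that include Ncf1 and Ncf4. Cyba, which non-phagocytic cells also express, had 19.2, 21.6 and 109 TPM in knockdown, 29.8, 13.8 and 24.1 in control oligo and 3.66, 3.21 and 4.03 in sham libraries. Cybb, the catalytic subunit, had 0.641, 0.411 and 27 TPM in knockdown, 3.09, 0.458 and 0.696 in control oligo and 0.14, 0.469 and 0.152 in sham libraries. The catalytic subunit thus stayed below 1 TPM in 7 of the 9 libraries, while Cyba was above 3 TPM in all 9. Ncf1 had 7.43, 9.47 and 50.9 TPM in knockdown, 11.5, 8.05 and 7.83 in control oligo and 1.8, 2.76 and 2.45 in sham libraries. Ncf4 had 2.53, 3.35 and 27.6 TPM in knockdown, 6.65, 2.26 and 3.96 in control oligo and 0.333, 0.576 and 0.11 in sham libraries. Of the 7 other oxidase genes Rac2, a small GTPase of blood cells, had 2.84, 2.16 and 31.1 TPM in knockdown, 5.81, 2.01 and 4.45 in control oligo and 0.337, 0.63 and 0.441 in sham libraries. Knockdown replicate 4 was the highest MCAO library for all 7 (20.5% of all genes). The filter kept 4 of them, and the other 3, Nox1, Nox3 and Nox4, were below 1 TPM in that library.

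The lectin receptors Clec4d and Clec4e lie 6.52 kb apart on chromosome 6 and sense glycolipids and dead cells. Clec4d had 0.836, 0.738 and 57.6 TPM in knockdown and 8.12, 0.247 and 2.9 in control oligo libraries and was listed at 0 in sham. Clec4e had 0.133, 0.0433 and 15.6 TPM in knockdown and 0.462, 0.0453 and 0.384 in control oligo libraries and was listed at 0 in sham. Clec4e was 33.7-fold higher in knockdown replicate 4 than in the next library, control oligo replicate 1, and below 1 TPM in the other 8 libraries.

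Lyz2, lysozyme of macrophages, microglia and neutrophils, was the most abundant of the 34 genes in knockdown replicate 4 and control oligo replicate 1, with 20.9, 21.3 and 521 TPM in knockdown, 108, 18.7 and 31.6 in control oligo and 4.43, 10.9 and 4.72 in sham libraries. Fcgr3, an antibody receptor of microglia, macrophages and neutrophils, had 36.1, 56.9 and 117 TPM in knockdown, 70.3, 37.7 and 44 in control oligo and 7.95, 10.5 and 6.8 in sham libraries. Fcgr4, its neighbour at 21.4 kb on chromosome 1 and the antibody receptor of neutrophils and monocytes, had 1.51, 1.43 and 53.3 TPM in knockdown, 12.2, 0.945 and 2.36 in control oligo and 0.137, 0.617 and 0.0323 in sham libraries. The ratio of knockdown replicate 4 to control oligo replicate 1 was 4.36 for Fcgr4 and 1.66 for Fcgr3. Alox5ap, which hands arachidonic acid to the leukotriene pathway, had 7.35, 6.17 and 64.6 TPM in knockdown, 11, 8.04 and 9.16 in control oligo and 2.37, 2.9 and 2.09 in sham libraries.

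**Figure D3:**
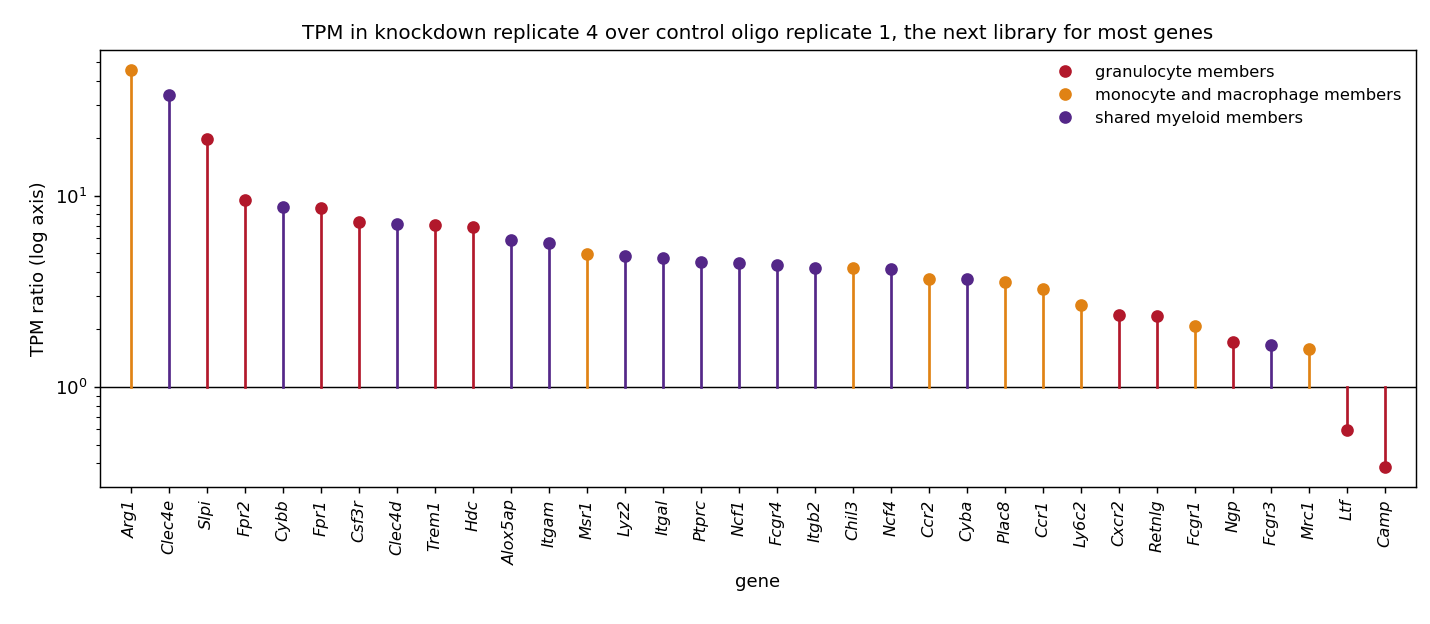
Ratio of TPM in knockdown replicate 4 to TPM in control oligo replicate 1 (y axis, log scale) for each of the 34 genes (x axis, sorted), 1 point per gene, coloured by role, with no replicate behind a ratio. The ratios run from 45.7 for Arg1 to 0.382 for Camp with a median of 4.40, and the granule genes Ngp, Ltf and Camp lie among the lowest 6.

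The comparison of the knockdown with the control oligo group asks what differs in the stroke cortex between the oligo against eRNA_06347 and the control oligo. The level filter kept 27 of the 34 genes and left out Trem1, Camp, Ltf, Ccr2, Itgal, Cybb and Clec4e, which have values but no test. In limma-trend fits over all genes none of the 27 members tested was called, at an adjusted p of 1 for each, and 0 had an unadjusted p under 0.05. Over all genes 0.0117% were called (2 of 17079), and 321 genes had an unadjusted p under 0.05. The called genes, named after their values were seen, were mt-Ts2, a mitochondrial tRNA gene, and Gm7808. The knockdown and control oligo libraries overlapped for each of the 34 genes, where 3.60% of all genes were higher and 1.80% lower with no overlap.

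The signs in this comparison depended on which library was left out. With all 3 knockdown libraries each of the 34 differences of log2(TPM + 1) was above 0, with a median of 0.43 for granulocyte, 0.45 for monocyte and macrophage and 0.63 for shared genes, beside 0.059 for all genes. After median-ratio scaling 31 of the 34 stayed above 0, while Cxcr2, Ltf and Mrc1 were just below 0, and 32 stayed above 0 when TPM was rescaled to nuclear protein-coding genes alone. Without knockdown replicate 4, 32 of the 34 were below 0, all but Camp and Ly6c2, with medians of -0.64, -0.44 and -0.38 beside 0.079 for all genes. No member was called in that fit either (0.0176% of all genes were), and 1 member, Fpr1, had an unadjusted p under 0.05. Without control oligo replicate 2, 7 of 11 granulocyte, 5 of 9 monocyte and macrophage and 13 of 14 shared genes were above 0. Their medians were 0.11, 0.11 and 0.27, beside 0.12 for all genes.

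The 95% intervals were wide, with 3 libraries in each group. Arg1 differed by 1.99 ± 1.76 (SE, log2 scale, 95% interval -2.22 to 6.20), and by -0.19 ± 0.58 without knockdown replicate 4. Fpr1 differed by 0.43 ± 1.49 (95% interval -3.12 to 3.99), and by -1.39 ± 0.56 without that library (limma adjusted p = 0.776). Retnlg differed by 0.39 ± 1.16 (95% interval -2.38 to 3.16), and by -0.64 ± 1.02 without it. For each of the 3 genes the interval of the full fit holds differences of more than 2 log2 units in both directions. Fcgr3 had the narrower interval of -0.72 to 1.40 around 0.34.

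**Figure D4:**
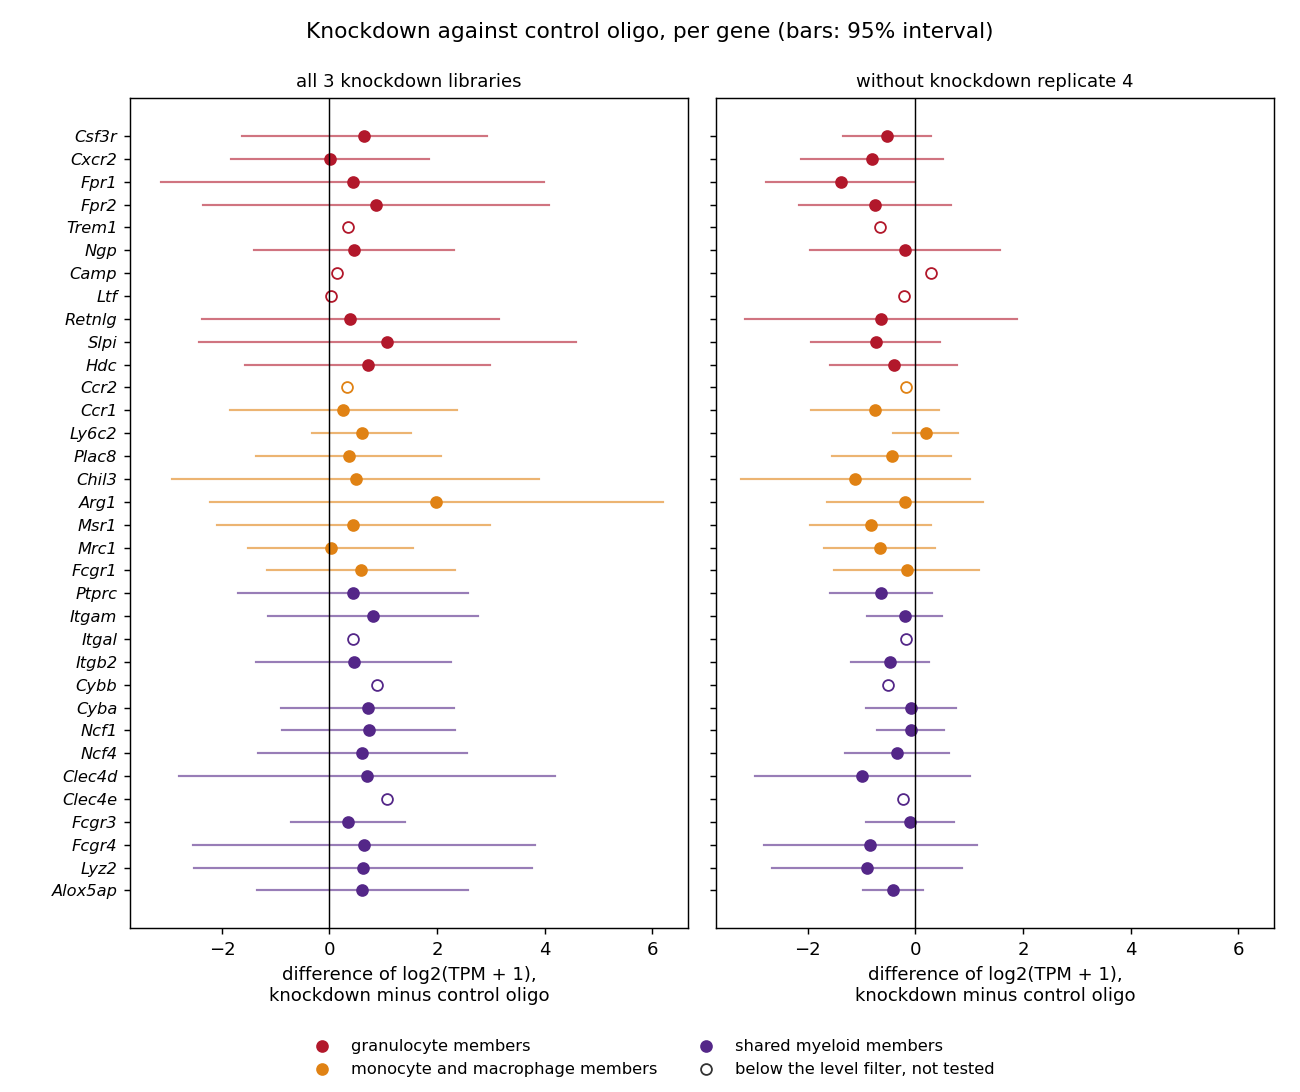
Difference of log2(TPM + 1), knockdown minus control oligo, on the x axis for each gene (rows), with all 3 knockdown libraries at left and without knockdown replicate 4 at right. Points are estimates coloured by role, bars are 95% intervals of the limma fit, and open points are genes below the level filter; 34 of 34 points lie above 0 at left and 32 of 34 below 0 at right.

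The comparison of the control oligo with the sham group asks which of these genes differ 6 h into reperfusion. Its limits are those given above, since the sham libraries come from an earlier data set. Of the 27 members tested 23 were called higher and 0 lower, where 52.6% of all genes were called higher and 12.8% lower. They were all 8 granulocyte genes tested, 4 of 8 monocyte and macrophage genes and all 11 shared genes tested. Ly6c2, Plac8, Arg1 and Mrc1 did not pass. After median-ratio scaling 18 were higher and Ly6c2 was lower, where 26.1% of all genes were called higher and 29.2% lower, so Ly6c2, at -0.10 without and -0.66 with scaling, passed with it, and also with TPM rescaled to nuclear protein-coding genes (-0.84). Leaving out sham replicate 3 left 15 members called, all higher, where 7461 of 17079 genes were called higher.

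The members with the clearest separation were shared genes. Fcgr3 was higher by 2.42 ± 0.25 (SE, log2 scale; 1.81 scaled; limma adjusted p = 8.68e-05). Cyba was higher by 2.28 ± 0.27 (1.72 scaled; limma adjusted p = 0.000153). Among monocyte genes Msr1 was higher by 2.15 ± 0.34 (1.94 scaled; limma adjusted p = 0.000709). All 3 control oligo libraries lay above all 3 sham libraries for each of these genes, and for 27 of the 34 genes in all, against 56.2% of all genes. Retnlg and Clec4d, both listed at 0 in sham, passed too (limma adjusted p = 0.00191 and 0.0236), and no fold is given for them. The libraries overlapped for Csf3r, Ltf, Ccr2, Ly6c2, Plac8, Itgal and Cybb. The median difference was 1.24 for granulocyte genes (0.68 relative to all genes), 0.90 for monocyte and macrophage genes (0.34 relative to all genes) and 1.71 for shared genes (1.15 relative to all genes).

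In the comparison of the knockdown with the sham group, which uses the same sham libraries, 11 of the 27 members tested were higher and 0 lower, where 52.8% of all genes were called higher and 12.5% lower. They were Ngp and Retnlg, Msr1 and Fcgr1, and 7 shared genes (Itgb2, Cyba, Ncf1, Ncf4, Fcgr3, Lyz2 and Alox5ap). After scaling 6 were higher, where 22.7% of all genes were higher and 27.1% lower. Leaving out knockdown replicate 4 raised the count to 21 (57.5% of all genes), while without sham replicate 1 or 3 it was 7 or 6. In those 2 fits 7820 and 7329 of 17079 genes were called higher. With the higher count came lower medians: 0.65, 0.71 and 1.08 for granulocyte, monocyte and shared genes without that library, against 1.90, 1.82 and 2.35 with it. Relative to the median of all genes these were 0.045, 0.10 and 0.48 without it and 1.29, 1.2 and 1.73 with it, so that without knockdown replicate 4 the granulocyte and monocyte medians lay close to that of all genes. Lyz2 was higher by 3.14 ± 1.13 (SE, log2 scale; 2.49 scaled; limma adjusted p = 0.0385), and Fcgr3 by 2.77 ± 0.38 (2.09 scaled; limma adjusted p = 0.000542). All 3 knockdown libraries lay above all 3 sham libraries for 23 of the 34 genes (57.8% of all genes).

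Granulocyte and monocyte genes were set against each other within each library. The ratio of the summed granulocyte to the summed monocyte and macrophage TPM was 0.865, 0.804 and 0.942 in knockdown, 1.02, 0.503 and 1.69 in control oligo and 0.152, 0.228 and 0.230 in sham libraries. Each of the 6 MCAO libraries thus had a higher ratio of sums than any sham library, and the knockdown values lay inside the range of the control oligo values. The mean log2(TPM + 1) of granulocyte minus monocyte genes did not separate them. It was -0.397, -0.508 and -0.484 in knockdown, -0.395, -0.599 and -0.101 in control oligo and -0.622, -0.786 and -0.449 in sham libraries. Without Arg1 and Chil3, removed after their values were seen, the ratio of sums was 1.02, 0.913 and 2.78 in knockdown, 1.56, 0.564 and 2.04 in control oligo and 0.154, 0.24 and 0.232 in sham libraries. The median log2 difference of the granulocyte genes minus that of the monocyte and macrophage genes was -0.014 for knockdown against control oligo, 0.35 for control oligo against sham and 0.083 for knockdown against sham. For knockdown against control oligo it was 0.29 without control oligo replicate 1, 0.26 without control oligo replicate 3 and -0.20 without knockdown replicate 4. For control oligo against sham it was -0.085 without control oligo replicate 3 and 0.026 without sham replicate 2, and for knockdown against sham it was -0.056 without knockdown replicate 4.

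Promoter sequences are shown for the granule genes and for 3 genes that stood further above the next library in knockdown replicate 4. The gaps were 33.7-fold (Clec4e), 9.48-fold (Fpr2) and 4.19-fold (Chil3). Of the granule genes Ngp was also highest in that library, at 1.72-fold, and Camp and Ltf were not. The genes were picked to set the sets side by side. They were chosen after the values were seen. The windows, from RefSeq on GRCm38.p6, run from 250 bases before to 50 bases after the annotated start, 5′ to 3′ on the strand of the gene. Capitals mark matches on either strand to TTNCNNAA, a form of the site bound by C/EBP factors, which act in the making of granulocytes and macrophages. The granule genes were Ngp (chr9:110419558-110419857, plus strand), Camp (chr9:109849407-109849706, minus strand) and Ltf (chr9:111019042-111019341, plus strand).
Ngp: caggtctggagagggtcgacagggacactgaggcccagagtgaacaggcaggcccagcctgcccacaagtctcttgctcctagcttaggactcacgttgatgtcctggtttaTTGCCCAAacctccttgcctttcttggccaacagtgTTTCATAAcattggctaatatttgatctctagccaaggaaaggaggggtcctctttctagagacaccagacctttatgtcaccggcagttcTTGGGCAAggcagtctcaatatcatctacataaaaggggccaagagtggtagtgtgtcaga
Camp: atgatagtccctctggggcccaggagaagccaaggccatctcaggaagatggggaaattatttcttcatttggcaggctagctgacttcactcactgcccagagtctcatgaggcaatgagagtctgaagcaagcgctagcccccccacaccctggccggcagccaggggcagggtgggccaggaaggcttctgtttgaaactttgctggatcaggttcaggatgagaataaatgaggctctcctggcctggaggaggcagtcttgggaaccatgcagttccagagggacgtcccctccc
Ltf: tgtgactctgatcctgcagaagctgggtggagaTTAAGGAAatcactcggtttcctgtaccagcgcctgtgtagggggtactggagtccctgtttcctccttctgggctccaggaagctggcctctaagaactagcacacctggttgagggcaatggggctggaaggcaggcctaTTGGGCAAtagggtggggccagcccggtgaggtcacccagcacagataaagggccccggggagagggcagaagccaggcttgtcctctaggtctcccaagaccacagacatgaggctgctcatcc
The others were Fpr2 (chr17:17887574-17887873, plus strand), Clec4e (chr6:123289822-123290121, minus strand) and Chil3 (chr3:106167515-106167814, minus strand).
Fpr2: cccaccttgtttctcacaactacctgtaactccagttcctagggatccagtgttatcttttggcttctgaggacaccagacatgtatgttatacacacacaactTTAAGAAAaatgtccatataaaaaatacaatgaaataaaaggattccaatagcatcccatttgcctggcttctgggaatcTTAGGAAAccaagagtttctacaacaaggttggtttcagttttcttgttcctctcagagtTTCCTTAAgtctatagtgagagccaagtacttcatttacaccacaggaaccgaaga
Clec4e: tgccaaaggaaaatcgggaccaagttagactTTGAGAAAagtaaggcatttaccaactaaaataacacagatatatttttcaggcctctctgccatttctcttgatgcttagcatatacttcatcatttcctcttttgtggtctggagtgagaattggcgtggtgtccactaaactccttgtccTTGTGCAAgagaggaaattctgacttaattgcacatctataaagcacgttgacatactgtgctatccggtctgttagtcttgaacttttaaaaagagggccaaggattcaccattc
Chil3: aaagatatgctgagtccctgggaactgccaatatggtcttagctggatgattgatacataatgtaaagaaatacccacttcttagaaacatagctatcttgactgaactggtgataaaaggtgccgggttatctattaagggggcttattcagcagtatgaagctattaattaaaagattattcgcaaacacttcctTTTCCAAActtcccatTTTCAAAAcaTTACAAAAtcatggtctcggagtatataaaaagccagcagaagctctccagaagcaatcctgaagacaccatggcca
Matches stood in 5 of these 6 windows, in both sets, and none in that of Camp. The RefSeq start lay 161 bases from the start of the leading deposited transcript for Camp, 61 bases for Ngp and at most 1 base for the other 4.

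Over all members 28 of the 34 had a window in the RefSeq table. TTNCNNAA was found in 20 of them (71.4%), in 7 of 11 granulocyte, 6 of 7 monocyte and macrophage and 7 of 10 shared genes, against 40.7% of 32817 windows. GAGGAAG, a form of the site of PU.1, a factor of the myeloid lineages, stood in 8 of 28 (28.6%), with 1 of 11 granulocyte (Csf3r), 3 of 7 monocyte and macrophage and 4 of 10 shared genes, against 13.6% of all windows. A form of the NF-kB site (GGG, any 2 bases, then TTTCC) stood in 1 of 28 (Fcgr3), against 1.63% of all windows. All motifs were searched on both strands. Each member has a single window, whereas the shares over all windows take every distinct window of the RefSeq set. These were not matched to the members for base composition. A match describes the letters of a window and is no evidence of binding.

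Other genes of the same cells were counted beside the members. Of 20 other neutrophil genes 12 were kept, of which 11 were called higher in control oligo than in sham (52.6% of all genes) and 10 after median-ratio scaling (26.1% of all genes). None was called in knockdown against control oligo by limma, and 0 had an unadjusted p under 0.05. Knockdown replicate 4 was the highest MCAO library for 15 of the 20 (20.5% of all genes). Lcn2, an iron-sequestering protein of neutrophils and reactive astrocytes, had 82.2, 84.7 and 898 TPM in knockdown, 181, 55.7 and 197 in control oligo and 2.34, 2.94 and 1.25 in sham libraries. Asprv1, a protease of neutrophils and skin, had 1.62, 1.95 and 19.1 TPM in knockdown, 3.79, 2.4 and 2.82 in control oligo and 0.276, 0.366 and 0.251 in sham libraries. Of the 4 primary granule genes in that list, made in bone marrow precursors, Elane, Mpo and Ctsg stayed below 1 TPM in every library, and Ctsg was listed at 0 throughout. The fourth, Prtn3, was kept by the filter, with 4.26, 2.84 and 1.96 TPM in knockdown, 2.05, 2.83 and 4.01 in control oligo and 0.444, 0.315 and 1.03 in sham libraries. All 6 MCAO libraries lay above sham for Prtn3, and knockdown replicate 4 was the lowest of the 6. Of 16 other monocyte and macrophage genes 13 were kept, of which 9 were called higher and 1 lower in control oligo than in sham, beside 52.6% and 12.8% of all genes, and 8 higher and 2 lower after scaling, beside 26.1% and 29.2%. Cd14, the lipopolysaccharide co-receptor, had 29.8, 25.1 and 171 TPM in knockdown, 65.7, 22.9 and 111 in control oligo and 1.34, 1.36 and 1.17 in sham libraries.

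Ligands of the member receptors were also uneven between libraries. The list of 14 also holds Il34, a ligand of Csf1r, which is not a member. Of the 14 genes 10 were kept, of which 9 were called higher in control oligo than in sham (52.6% of all genes) and 7 after scaling (26.1% of all genes). Knockdown replicate 4 was the highest MCAO library for 10 of the 14 (20.5% of all genes). Cxcl1, a ligand of Cxcr2, had 11.7, 3.71 and 47.6 TPM in knockdown, 16.1, 7.88 and 42.3 in control oligo and 0.0458, 0.202 and 0.0215 in sham libraries. Ccl3, a ligand of Ccr1, had 23.8, 8.0 and 158 TPM in knockdown, 23.7, 13.1 and 108 in control oligo and 0, 0.117 and 0.105 in sham libraries. Anxa1, the source of Fpr2 ligands, had 12.1, 10.9 and 26.6 TPM in knockdown, 13.4, 9.13 and 9.72 in control oligo and 1.85, 1.87 and 2.01 in sham libraries. The ligands did not follow the members in each library: Cxcl1 and Ccl3 were higher in control oligo replicate 3 than in replicate 1, where most members were highest of that group. Of 8 genes of leukocyte adhesion and entry 7 were kept and 6 called higher than sham in the control oligo group (4 after scaling, with the same shares of all genes), among them Icam1, the vessel ligand of the Itgb2 integrins, with 6.43, 5.31 and 34.9 TPM in knockdown, 10.1, 5.2 and 31.2 in control oligo and 1.07, 2.18 and 0.533 in sham libraries.

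Marker lists of other cells also differed between the libraries. Homeostatic microglia markers, all 16 of which were kept, summed to 696 to 1615 TPM in knockdown, 620 to 833 in control oligo and 241 to 303 in sham libraries, with the highest value in knockdown replicate 4, and 12 of the 16 were highest there (20.5% of all genes). P2ry12, Siglech, Gpr34 and Cx3cr1 were the exceptions. P2ry12, a purine receptor of resting microglia, had 14.9, 13.2 and 10.1 TPM in knockdown, 9.62, 15.5 and 14.9 in control oligo and 24.3, 20.9 and 18.2 in sham libraries. Siglech, a lectin of microglia, had 7.4, 5.91 and 2.89 TPM in knockdown, 9.04, 7.17 and 6.17 in control oligo and 3.34, 3.57 and 2.46 in sham libraries. Knockdown replicate 4 was the lowest MCAO library for Siglech. Gpr34, another microglial receptor, had 10.2, 11.8 and 3.94 TPM in knockdown, 3.64, 9.83 and 6.63 in control oligo and 9.03, 9.37 and 8.25 in sham libraries. In knockdown replicate 4 the complement chains C1qa, C1qb and C1qc, which macrophages also make, had 391, 368 and 284 TPM of the sum of 1615. C1qb had 141, 158 and 368 TPM in knockdown, 221, 134 and 144 in control oligo and 32.9, 42.6 and 28.7 in sham libraries. Border-associated macrophage markers, 8 genes, summed to 15.7 to 114 TPM in knockdown, 20.4 to 39.3 in control oligo and 7.08 to 10.04 in sham libraries. Erythroid markers, 7 genes, summed to 1992, 2960 and 264 TPM in knockdown, 156, 835 and 2165 in control oligo and 531, 614 and 264 in sham libraries. The libraries with the highest myeloid levels, knockdown replicate 4 and control oligo replicate 1, had the lowest erythroid sums of the MCAO libraries. The order was not opposite throughout: control oligo replicate 2, with the lowest myeloid sum of the MCAO libraries, had the next lowest erythroid sum. Hbb-bs, a beta globin, had 639, 944 and 94.3 TPM in knockdown, 49.8, 288 and 713 in control oligo and 188, 235 and 96.3 in sham libraries. Lymphocyte markers, 12 genes, summed to 17.2 to 22.6 TPM in knockdown, 19.1 to 31.9 in control oligo and 18.7 to 23.8 in sham libraries, mostly from Trbc2 and Lck, and the CD3 chains of T cells (Cd3d, Cd3e and Cd3g) stayed below 0.3 TPM. The part of these cells, and of blood left in the vessels, in the differences of the 34 genes was not tested.

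**Figure D5:**
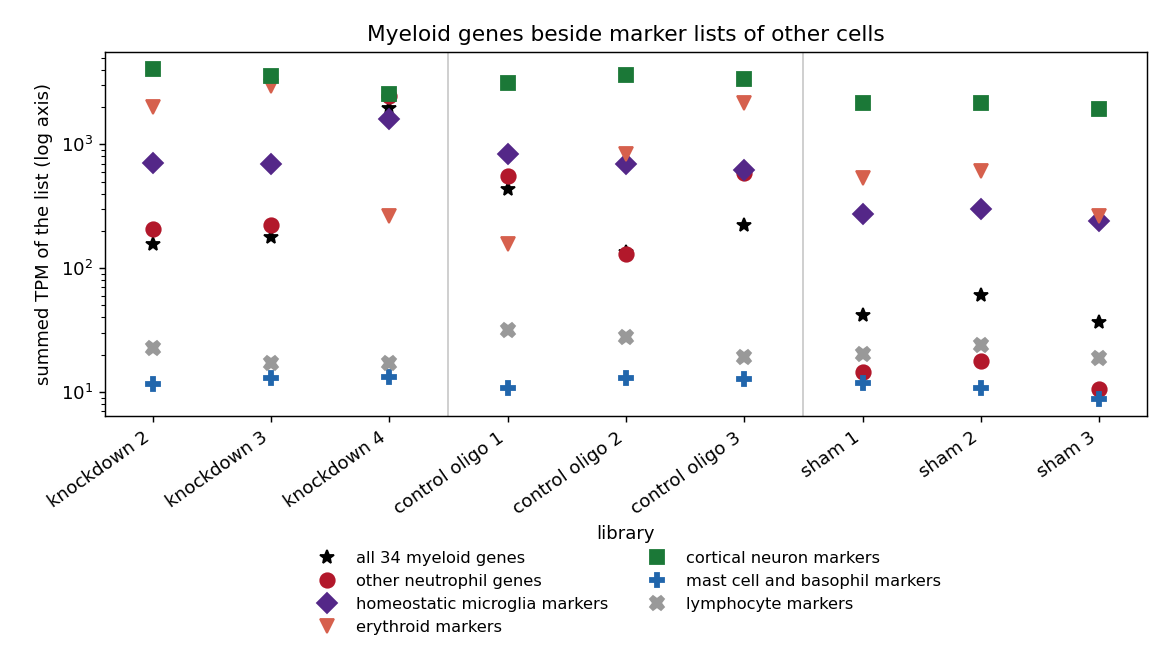
Summed TPM (y axis, log scale) of the 34 genes and of 6 marker lists of other cells or other neutrophil genes in each library (x axis; knockdown, control oligo and sham from left to right, 1 point per list and library). The myeloid and other neutrophil sums are highest in knockdown replicate 4, at 1954 and 2457 TPM, where the erythroid sum is 264 TPM against 1992 and 2960 in the other knockdown libraries.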

How the data were processed

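The deposited tables hold, for each transcript and library, a TPM value, an FPKM value (fragments scaled by length and depth) and mean coverage; no counts were used, so no count test was run. HISAT2 2.0, StringTie 1.3 and the build GRCm38/mm10 are named in the submitters' processing notes. Per the file headers StringTie was run with -e and -B and no strand option, so overlapping genes, antisense genes and near-identical copies are uncertain. Per the labels' protocols the knockdown and control oligo libraries were made with a stranded poly(A) kit; the kit of the sham libraries is not given in the sources used here.

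TPM was summed over the transcripts of a gene. Genes at a TPM of at least 1 in at least 3 of 9 libraries (17079) were tested, 1 comparison at a time on the 6 libraries concerned, with limma-trend (limma 3.58.1 under R 4.3.3) on the scale log2(TPM + 1), which understates changes of low genes. There was no covariate, and a gene was called at a Benjamini-Hochberg adjusted p under 0.05 over all genes tested. Scaled values use 1 size factor per library, the median over genes of its TPM over the geometric mean. The labels give n = 3 per group and no batch, so p-values measure the spread between these libraries only. Within groups, r of the log2 values over all genes tested was 0.938 to 0.987, and no library was a copy of another. The lowest values, 0.938 and 0.941, were those of knockdown replicate 4 with knockdown replicates 2 and 3. Those 2 replicates correlated with each other at 0.983, so knockdown replicate 4 differed from its group over all genes, not only in the members.

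All members are named; from each other list come up to 4 genes with the smallest p, besides marker genes named for their level and Ly6c1, chosen after its values were seen. The members and lists were chosen with earlier results of these data known. Promoter windows were matched by symbol to a RefSeq table on GRCm38.p6. The fits were tested on simulated data, with known changes given to genes of higher level. In knockdown against control oligo 21% of changes of 1 log2 unit and 75% of changes of 2 were called. In control oligo against sham these shares were 55% and 87%. A change of 1 log2 unit could thus often go uncalled. These shares were not given for the members alone. In knockdown against control oligo the SE of the tested members ran from 0.38 (Ly6c2) to 1.76 (Arg1) on the log2 scale. For members with a wide SE a change of 2 log2 units could go uncalled too, so a missing call does not exclude it. Alternatives were FPKM, median-ratio scaling, TPM over nuclear protein-coding genes, a pseudocount of 0.1, no filter, a joint fit of 9 libraries, a replicate block and each library left out. Tables were read with pandas 2.3.3 and numpy 2.4.6 under Python 3.11.15, and figures were drawn with matplotlib 3.10.9.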

Additional observations from a re-analysis of the deposited data

How the results depend on the processing

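No member was called in knockdown against control oligo under any alternative run with limma, with 0 or 1 member at an unadjusted p under 0.05. Over all genes 2 were called there, 0 with TPM over nuclear protein-coding genes (235 at an unadjusted p under 0.05), 7 with no low-value filter, 4 with all 9 libraries in the fit and 1 to 3 with each replicate left out. For the sham comparisons, brackets after a member count hold the genes called higher. These are of 17079 tested, or 14584 for nuclear protein-coding genes, and of more with no filter. In control oligo against sham 23 members were called higher (8990), 14 with no filter (8419) and 9 with all 9 libraries in the fit (8367). With each replicate left out 15 to 25 were called higher (7461 to 9572), 15 of them without sham replicate 3 (7461). TPM over nuclear protein-coding genes gave 7390 called genes there against 11168. The granulocyte minus monocyte median of 0.35 was 0.60 with TPM over nuclear protein-coding genes, 1.13 with a pseudocount of 0.1 and -0.085 to 0.51 with each replicate left out; in knockdown against control oligo it was -0.014, and -0.20 to 0.29 with each replicate left out. In knockdown against sham 11 members were called higher (9010), 5 with FPKM (4458), 6 with median-ratio scaling (3882) and 6 with TPM over nuclear protein-coding genes (2603). The count was 19 with a pseudocount of 0.1 (9112), 5 with no filter (8203) and 6 to 21 with each replicate left out (7329 to 9815). It was 21 without knockdown replicate 4 (9815), and 7 and 6 without sham replicates 1 and 3 (7820 and 7329). TPM over nuclear protein-coding genes gave 6687 called genes there against 11153. The median of 0.083 there was -0.084 with TPM over nuclear protein-coding genes, 0.34 with a pseudocount of 0.1 and -0.056 to 0.19 with each replicate left out. Of 1428 alternative values of single members 97 lost and 46 gained a call, 11 others moved, and none that was called changed sign. The causes were not tested. Itgam by its own gene ID alone, an alternative added after seeing the data, kept its side of the threshold in each comparison.

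The replicate numbers showed no clear pairing of the samples, though so few libraries cannot exclude it. Deviations of same-numbered libraries correlated at 0.23 and 0.07 for knockdown with control oligo. The values were -0.03, -0.07 and 0.12 for control oligo with sham, and -0.06 and 0.07 for knockdown with sham. Of the 6 control oligo and sham libraries 2 correlated best with their own number. With the replicate block, on the numbers each pair of groups shares, 0 genes and 0 members were called in knockdown against control oligo (658 genes and 1 member at an unadjusted p under 0.05). In control oligo against sham 22 members were called higher, beside 9175 of 17079 genes. In knockdown against sham 20 were, beside 9220 genes, and the median was -0.086. Both blocks with the knockdown group rest on replicates 2 and 3 alone, so knockdown replicate 4 has no part in them.

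Low levels rest on few reads: Camp had an estimated 2 to 12 read pairs in the MCAO libraries.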
